A study of Mus musculus with 12 samples.

Results

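The nuclear genome encodes most subunits of the respiratory chain and of ATP synthase, and these oxidative phosphorylation genes were followed here in mouse epiblast-like cells (EpiLCs) and in the primordial germ cell-like cells (PGCLCs) made from them, with and without bisphenol A (BPA). Members were all genes in the deposited expression tables whose symbols follow the naming of subunits of complexes I to V (Nduf, Sdh, Uqcr, Cyc1, Cox4 to Cox8 and Atp5 names). The rule gave 83 of the 21728 genes listed in any library: 36 of complex I, 4 of complex II, 9 of complex III, 17 of complex IV and 17 of complex V. Ndufa4 was placed with complex IV, and Atp5s and Atp5sl carry complex V names without being subunits. The mitochondrially encoded subunits, Ndufa4l2, Cox6a2 and Cox8b were not analysed here.

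All cells came from C57BL/6 embryonic stem cells carrying the reporters Blimp1-mVenus and Stella-ECFP, which mark the germ cell genes Prdm1 and Dppa3, and there were 4 groups of 3 mRNA libraries. PGCLCs of the BPA arm and untreated PGCLCs were day 5 cells, sorted from dissociated aggregates as positive for both reporters. BPA EpiLCs received 100 nM BPA for the last 24 h of a 48 h culture, and untreated EpiLCs are described as water controls. Whether the PGCLC medium also held BPA is not stated, nor are replicates said to be separate cultures; the p-values therefore reflect only how these libraries vary, which may be technical. PGCLC and EpiLC libraries carry different naming schemes, so library batch and cell stage cannot be told apart. The library titled untreated EpiLC replicate 3 carries another number in its description; its title was followed.

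Electrons from NADH enter the chain at complex I and those from succinate at complex II, pass through complex III and cytochrome c, and reach oxygen at complex IV; the proton gradient this builds drives ATP synthase, complex V. Catalytic core subunits carry the redox centres or the nucleotide sites, while accessory subunits hold the complexes together. Transcription of the nuclear subunit genes is known to involve the factors NRF1, GABP (also called NRF2), YY1 and the oestrogen-related receptors. Epiblast cells are known for a glycolytic metabolism, and primordial germ cells for a greater use of oxidative phosphorylation.

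Promoter sequences were read for the 69 of 83 members found in a RefSeq table (GRCm38.p6) of 27025 genes, over 250 bases before to 50 bases after each start. Both strands were searched. The NRF1 motif GCGCANGCG was present in 20 members (29.0%) and in 7.03% of all genes in the table, the GABP motif CCGGAAG in 16 members (23.2%) and in 9.93%, and the YY1 motif AAGATGGCG in 8 members (11.6%) and in 1.64%. The ERR motif TCAAGGTCA was found in 2 members (2.9%) and in 0.466% of all genes. The SP1 motif GGGCGG was in 42.0% of members and 38.2% of all genes, the CCAAT box in 44.9% and 41.1%, and TATAAA in 8.7% and 15.7%. A match describes the letters only. The 100 bases upstream of the start are printed for 7 members that the results below turn on or that show these motifs, each read 5′ to 3′ on the gene's strand, with matches in capitals. They lie at chrX:37191239-37191338 (Ndufa1), chr2:36049339-36049438 (Ndufa8), chr13:74350241-74350340 (Sdha), chr9:50603850-50603949 (Sdhd), chr10:80406822-80406921 (Uqcr11) and chr5:108434400-108434499 (Atp5k), all on the minus strand, and at chr9:57521132-57521231 (Cox5a) on the plus strand.
Ndufa1: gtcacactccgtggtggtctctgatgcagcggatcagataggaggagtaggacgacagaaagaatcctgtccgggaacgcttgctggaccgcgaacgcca
Ndufa8: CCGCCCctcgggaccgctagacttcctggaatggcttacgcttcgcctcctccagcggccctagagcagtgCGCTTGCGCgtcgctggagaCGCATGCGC
Sdha: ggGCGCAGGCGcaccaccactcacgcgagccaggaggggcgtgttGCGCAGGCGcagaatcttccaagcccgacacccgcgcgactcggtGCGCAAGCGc
Sdhd: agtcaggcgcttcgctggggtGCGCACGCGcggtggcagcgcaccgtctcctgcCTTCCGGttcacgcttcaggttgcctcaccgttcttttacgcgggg
Uqcr11: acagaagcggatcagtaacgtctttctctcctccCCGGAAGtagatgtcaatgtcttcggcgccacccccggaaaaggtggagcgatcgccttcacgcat
Cox5a: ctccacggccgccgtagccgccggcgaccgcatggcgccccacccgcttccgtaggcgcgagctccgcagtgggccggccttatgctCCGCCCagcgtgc
Atp5k: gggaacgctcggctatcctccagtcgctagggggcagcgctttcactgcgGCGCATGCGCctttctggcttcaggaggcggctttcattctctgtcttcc

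Sdha has 3 NRF1 matches in these 100 bases, Ndufa8 has 2 NRF1 matches and 1 SP1 match, and Sdhd has 1 NRF1 and 1 GABP match. Atp5k has NRF1 matches on both strands that overlap, Uqcr11 has 1 GABP match and Cox5a 1 SP1 match. Ndufa1, the member with the largest fall below, holds none of the 7 motifs in this window. Over the longer stretch used for the shares, 250 bases before to 50 bases after the start, Ndufa1 has an SP1 match. Sdha, Sdhd, Uqcr11 and Atp5k hold further motifs there.

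Counts assigned to genes ran between 30375633 and 34309195 in the 6 PGCLC libraries and between 11785338 and 22029195 in the 6 EpiLC libraries. The files list only genes with at least 10 counts, so an unlisted gene had 9 or fewer, which is at most 0.764 CPM. Levels below are CPM, counts scaled to the size of the library, after factors from the trimmed mean of M values (TMM), and log2 changes carry their standard error (SE). A change is called where the edgeR quasi-likelihood test gave a Benjamini-Hochberg adjusted p under 0.05 over all genes tested. The cell labels were compared with marker genes. All 8 early germ cell markers were higher in PGCLCs than in EpiLCs, and Prdm14 was unlisted in every EpiLC library. All 12 visceral endoderm markers were also higher in PGCLCs, and 5 of them (Afp, Ttr, Gata6, Sox17 and Hnf4a) were unlisted in every EpiLC library. Of 6 formative epiblast markers, 4 were lower and 1 higher in PGCLCs, in BPA cells and in untreated cells. Of 5 mesoderm markers, 2 were higher and 0 lower in each.

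BPA PGCLCs had lower levels of many respiratory subunit transcripts than untreated PGCLCs, and of none a higher level past the test. Of 82 members tested, 36 were lower (43.9%) and 0 were higher, where 5.72% of the 16753 genes tested were lower and 8.13% higher. Cox8c did not pass the filter on low counts in PGCLCs, nor did Cox4i2 in EpiLCs. The median log2 change of the members was -0.32, against 0.01 for all genes. The 83 members summed to 8661, 8405 and 8057 CPM in BPA PGCLCs and to 9679, 9744 and 9906 CPM in untreated PGCLCs, without overlap. All 3 BPA libraries lay below all 3 untreated libraries for 57 of 82 members, a pattern that 17.3% of all genes showed. In bulk RNA, fewer cells of a type and less RNA per cell cannot be told apart.

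**Figure D1:**
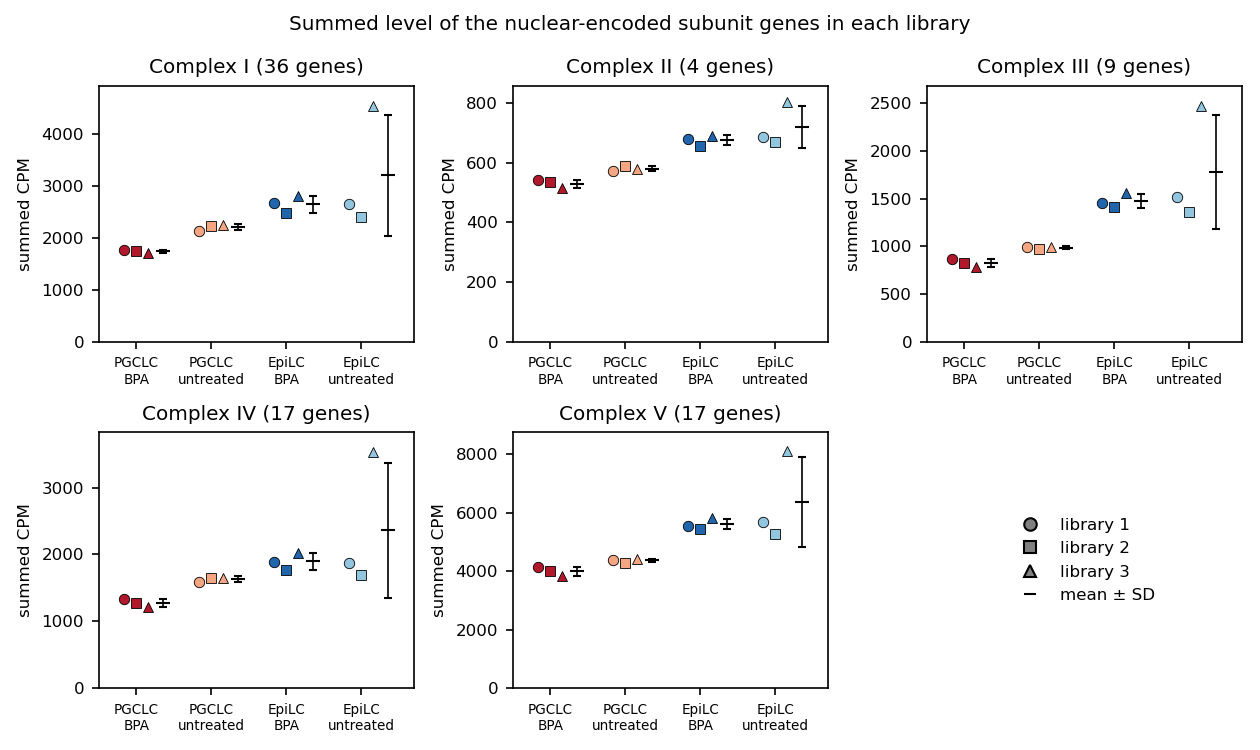
Summed CPM (y axis, linear) of the members of each complex in the 12 libraries, 1 point per library and the mean with SD beside them, with PGCLCs left of EpiLCs and BPA left of untreated within each stage. In complexes I to V the 3 BPA PGCLC libraries lie below the 3 untreated ones, and 1 untreated EpiLC library (replicate 3) stands far above the other EpiLC libraries.

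In complex I, 16 of 36 members fell in BPA PGCLCs, and all 16 were accessory subunits (16 of 29 accessory, 0 of 7 core). Ndufa1, a small membrane-arm subunit needed for assembly of the complex and encoded on the X chromosome, had 15.7, 16.1 and 13.2 CPM in BPA PGCLCs, against 39.4, 48.5 and 39.7 CPM in untreated PGCLCs. The 2 groups did not overlap, and the log2 change was -1.49 (SE 0.14, adjusted p = 0.0011), or 2.81-fold lower. Under 18 other settings it stayed between -1.56 and -1.09 and remained called. Ndufb5, another membrane-arm subunit, had 19.2, 17.4 and 18.3 CPM with BPA and 38.9, 35.2 and 45.7 CPM without (log2 change -1.11, SE 0.12, adjusted p = 0.0023). Ndufb6 (-0.73), Ndufs6 (-0.68), Ndufa5 (-0.67), Ndufa3 (-0.61) and Ndufa8 (-0.58) were also called lower. None of these calls held in all of 18 other settings. Without BPA replicate 2, for example, those of Ndufa5 and Ndufa3 were lost (adjusted p = 0.0509 and 0.0665).

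The 7 core subunits, conserved from bacteria and home to the redox centres, gave 0 calls. Ndufs1, the largest core subunit, had 96.4, 102 and 95 CPM in BPA PGCLCs and 114, 102 and 107 CPM in untreated PGCLCs (log2 change -0.13, adjusted p = 0.29). Ndufv1, which binds NADH, had 110, 110 and 106 CPM with BPA and 140, 115 and 126 CPM without (log2 change -0.21, adjusted p = 0.14). In both genes the value was negative. The difference between core and accessory subunits was not itself tested.

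Complex II, the succinate dehydrogenase that also serves the citric acid cycle, had both catalytic subunits lower and neither membrane anchor. Sdha, the flavoprotein, had 276, 280 and 281 CPM in BPA PGCLCs, against 326, 331 and 316 CPM in untreated PGCLCs (log2 change -0.21, SE 0.05, adjusted p = 0.029). Sdhb, the iron-sulphur subunit, had 66.7, 63.6 and 65.1 CPM with BPA and 79.5, 81.8 and 81.8 CPM without (log2 change -0.30, SE 0.07, adjusted p = 0.026). In neither gene did the groups overlap. The call of Sdha was lost without any 1 of the PGCLC libraries other than BPA replicate 3 (adjusted p between 0.0591 and 0.147). That of Sdhb was lost without untreated replicate 2 or 3 or BPA replicate 1 or 2 (between 0.0617 and 0.142). The anchors Sdhc and Sdhd had log2 changes of 0.06 and 0.14 with overlapping groups.

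Of 9 complex III members, 3 of the 5 small subunits fell. Uqcr11, the smallest subunit, had 43.5, 44.8 and 43.3 CPM in BPA PGCLCs and 65.8, 90.0 and 80.1 CPM in untreated PGCLCs (log2 change -0.83, SE 0.12, adjusted p = 0.0052), with no overlap between the groups. In 1 fit of all 12 libraries the adjusted p of Uqcr11 was 0.105. Uqcr10 (-0.46) and Uqcrh (-0.38) were the other two called. With offsets for GC content and length their values were -0.16 and -0.17 and neither was called (adjusted p = 0.353 and 0.213). The call of Uqcr10 was also lost without BPA replicate 2 or untreated replicate 2 or 3 (adjusted p between 0.0574 and 0.0994), and that of Uqcrh without BPA replicate 2 or any 1 untreated library (between 0.0537 and 0.102). Cyc1, the haem-carrying cytochrome c1, and Uqcrfs1, the Rieske iron-sulphur protein, had log2 changes of -0.24 and -0.30 and adjusted p of 0.062 and 0.065. The structural core protein Uqcrc1 had 216, 201 and 200 CPM with BPA and 225, 185 and 215 CPM without (log2 change -0.01).

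In complex IV, 8 of the 11 common subunits fell and none of the 4 alternative isoforms tested was called. Cox7a2 had 58.9, 53.0 and 47.8 CPM in BPA PGCLCs, against 93.5, 98.2 and 91.7 CPM in untreated PGCLCs (log2 change -0.82, SE 0.10, adjusted p = 0.0026). Cox7b, X-linked like Ndufa1, had 70.5, 72.8 and 65.6 CPM with BPA and 120, 127 and 117 CPM without (log2 change -0.79, SE 0.08, adjusted p = 0.0012). Cox6c (-0.72), Ndufa4 (-0.60), Cox6b1 (-0.42), Cox5a (-0.41), Cox7c (-0.38) and Cox5b (-0.37) were lower as well. The call of Ndufa4 did not hold in all of 18 other settings. With offsets for GC content and length Cox6b1 (-0.13), Cox5a (-0.27), Cox7c (-0.17) and Cox5b (-0.22) were not called (adjusted p between 0.0626 and 0.3745). These 4 calls were also lost without BPA replicate 2 (adjusted p between 0.0519 and 0.0987), and all but that of Cox5a without BPA replicate 1 (between 0.0545 and 0.0929). Leaving out 1 untreated library ended the call of Cox6b1 (replicate 3), Cox7c (replicate 2 or 3) and Cox5b (replicate 1 or 2), with adjusted p between 0.05365 and 0.0699. Cox4i1, the subunit at which ATP regulates the oxidase, had 208, 192 and 191 CPM with BPA and 201, 197 and 198 CPM without (log2 change 0.00, 95% interval -0.13 to 0.13). The groups of Cox4i1 overlapped, and so did those of Cox6a1 (-0.05) and Cox8a (-0.14). Cox7a2l, which joins complexes III and IV into supercomplexes, had a log2 change of 0.07 and was not called.

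Complex V had 7 of 17 members lower, 6 of the 10 subunits of the membrane part and stalk and 1 of the 5 subunits of the catalytic F1 head. Atp5k, the e subunit at the interface of ATP synthase dimers, had 29.5, 28.4 and 28.9 CPM in BPA PGCLCs and 52.9, 61.7 and 65.5 CPM in untreated PGCLCs (log2 change -1.04, SE 0.10, adjusted p = 0.0014). Atp5g3, which with Atp5g1 and Atp5g2 encodes the identical mature c subunit of the rotor, had 172, 163 and 169 CPM with BPA and 254, 257 and 266 CPM without (log2 change -0.61, adjusted p = 0.00086). Atp5g1 fell by 0.31 on the log2 scale (adjusted p = 0.023; between 0.0585 and 0.124 without untreated replicate 1 or 3 or BPA replicate 1 or 2), and Atp5g2 had a log2 change of -0.21 (adjusted p = 0.19). The only F1 subunit called was Atp5e (-0.69), the small epsilon subunit. The calls of Atp5e and Atp5g3 did not hold in all of 18 other settings. Atp5b, the catalytic beta subunit, had 1705, 1657 and 1544 CPM with BPA and 1668, 1634 and 1681 CPM without, and its groups overlapped (log2 change -0.01, 95% interval -0.12 to 0.10). Atp5a1, the alpha subunit, likewise had a log2 change of -0.04.

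**Figure D2:**
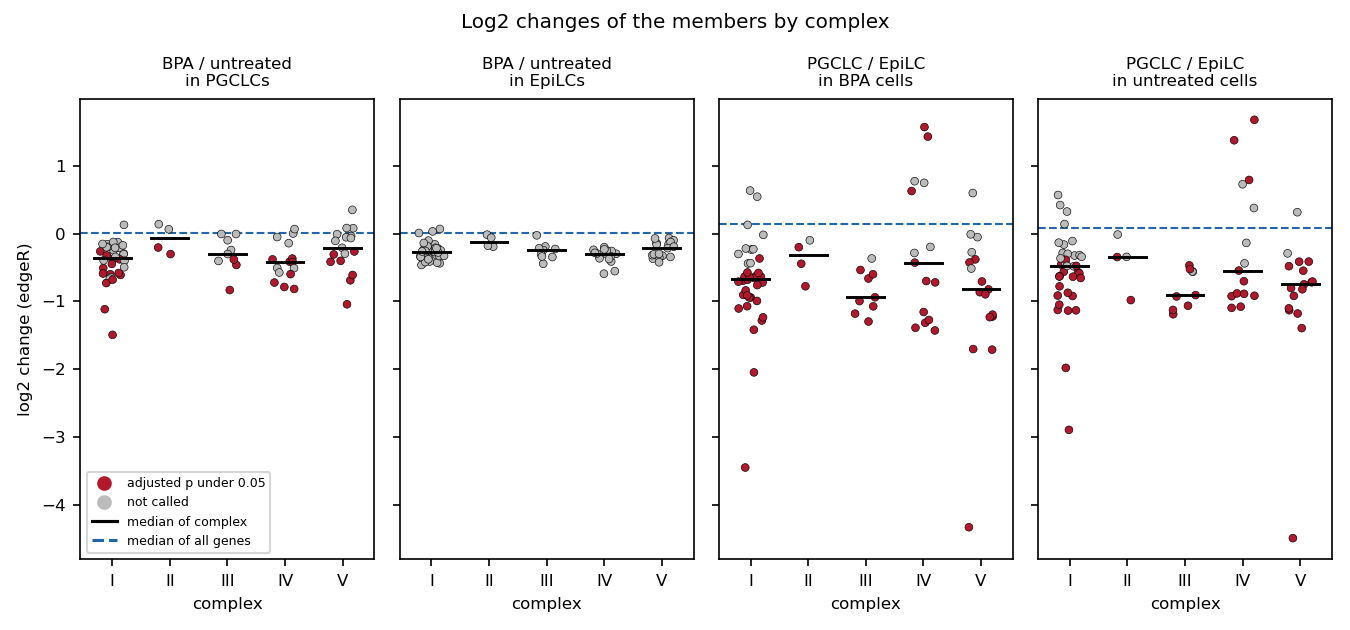
Log2 change of each member by complex, with called members in red, the others in grey, black bars for the median of the complex and a dashed line for the median of all genes, in 4 panels for BPA in PGCLCs, BPA in EpiLCs and PGCLCs over EpiLCs in BPA and in untreated cells (Cox4i2 and Cox8c are not drawn). With BPA in PGCLCs the red points reach down to -1.49 and none lies above 0, and with BPA in EpiLCs no point is red.

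Most members that fell in BPA PGCLCs have short transcripts. Of the 38 members whose principal transcript is under 800 bases, 24 fell (63.2%, median log2 change -0.45), against 95 of 419 other protein-coding genes of that length (22.7%, median -0.37). Between 800 and 1500 bases 8 of 23 members fell (34.8%), against 11.8% of other genes. From 1500 to 3000 bases 3 of 17 members fell (17.6%), against 5.68% of other genes, and above 3000 bases 1 of 4, against 3.61%. Over the 82 members Spearman's rho between length and log2 change was 0.44, and over other protein-coding genes it was 0.11. These genes share the same 6 libraries. The offsets for GC content and length used the length of merged exons, which differs from that of the principal transcript. With these offsets, 23 members were lower and 1 higher. Of the 16753 genes tested with them, 879 were lower and 1172 higher. Of the 84 cytosolic ribosomal protein genes, 67 were lower in BPA PGCLCs and 1 higher (median log2 change -0.42).

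**Figure D3:**
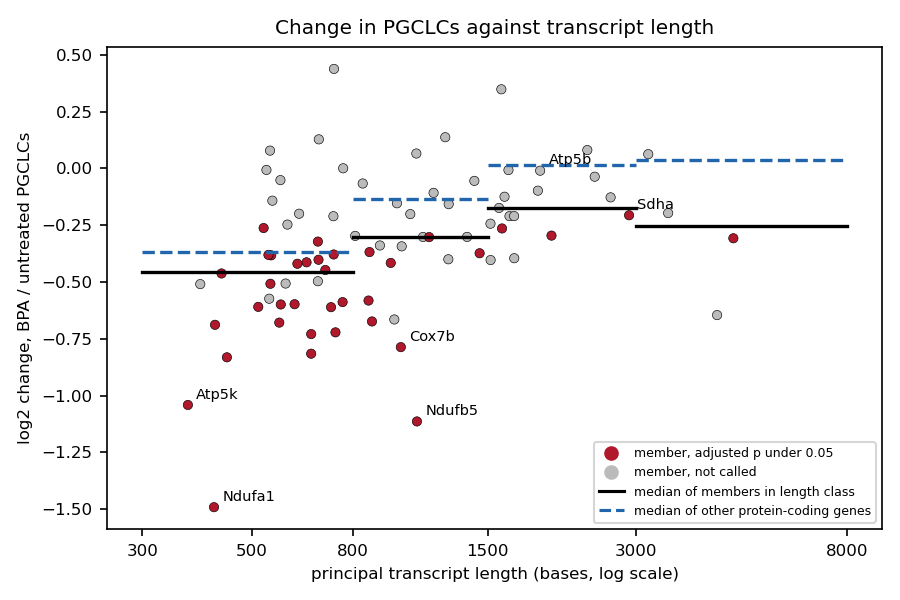
Log2 change with BPA in PGCLCs against the length of the principal transcript (x axis, log scale, bases) for the members (points, called ones in red), with the median of members (solid lines) and of other protein-coding genes (dashed lines) per length class. Members under 800 bases have a median of -0.45 and hold 24 of the 36 members that fell.

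Other cell markers moved with the same contrast. Visceral endoderm markers summed to 10394, 10934 and 5202 CPM in BPA PGCLCs and to 1407, 1004 and 894 CPM in untreated PGCLCs, with 8 of 12 called higher. Early germ cell markers summed to 910, 870 and 938 CPM with BPA and to 974, 1045 and 1123 CPM without, with 3 of 8 called lower (Prdm14 -0.63, Tfap2c -0.41 and Prdm1 -0.32). Formative epiblast markers summed to 480, 477 and 424 CPM with BPA and to 385, 399 and 415 CPM without. Of these 6 markers 2 were called higher and 0 lower. Of 4 mesoderm markers tested 1 was called higher and 1 lower. X-linked genes were called lower in 113 of 623 cases and higher in 34, with a median of -0.32. Of the 3 X-linked members, Ndufa1 and Cox7b fell and Ndufb11 had a log2 change of -0.34 (adjusted p = 0.054). The part of endoderm, germ cell, epiblast, mesoderm and X-linked differences in the members' changes was not tested. Members that share no 50-base stretch with another gene fell in 20 of 47 cases, and those that share one in 16 of 35. The number of members called lower was 7 in 1 fit of all 12 libraries. When single PGCLC libraries were left out it was 23 (untreated replicate 2), 21 (untreated replicate 3), 22 (BPA replicate 1) or 14 (BPA replicate 2). It was 27 without untreated replicate 1 and 36 without BPA replicate 3, and the medians lay between -0.34 and -0.29. Of all genes tested, 959 were called lower in the main test and 548 in the fit of 12 libraries. Without those single libraries, in the same order, the number was 495, 380, 294, 268, 556 and 1271.

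In the promoters, the NRF1 motif was in 30.3% of the 33 matched members that fell and in 27.8% of the 36 that did not, the GABP motif in 24.2% and 22.2%, and the YY1 motif in 9.09% and 13.9%. These shares are a description of the sequences, with no test.

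**Figure D4:**
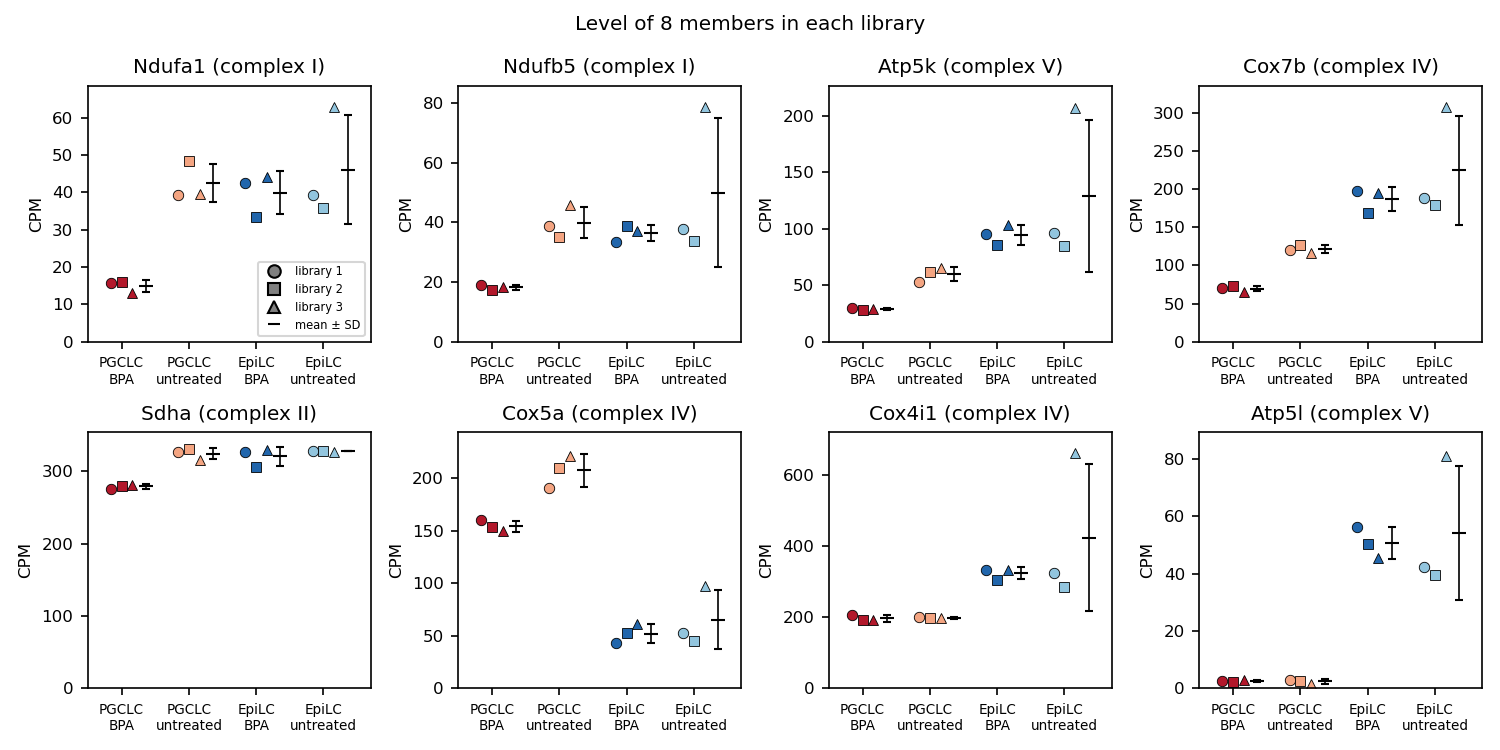
CPM per library (points) with the group mean and SD for Ndufa1, Ndufb5, Atp5k, Cox7b, Sdha, Cox5a, Cox4i1 and Atp5l, PGCLCs left of EpiLCs and BPA left of untreated within each stage. Ndufa1 and Ndufb5 have their lowest values in the 3 BPA PGCLC libraries, Cox5a is higher in every PGCLC library than in every EpiLC library, and Atp5l is at 3.00 CPM or less in all PGCLC libraries.

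Other genes of mitochondrial and energy metabolism gave these counts in BPA PGCLCs, where 5.72% of all genes tested were lower and 8.13% higher. Of 46 assembly factors 4 fell (8.7%), namely Cox16 (-1.02), Taco1 (-0.83), Coa6 (-0.69) and Uqcc2 (-0.45), and 0 rose. Among 10 carriers and cytochrome c genes 3 fell: Cycs, the somatic cytochrome c, averaged 48.4 ± 4.26 CPM in BPA PGCLCs and 76.0 ± 6.26 CPM in untreated PGCLCs (SD, n = 3 each; log2 change -0.64, adjusted p = 0.0064), and the adenine nucleotide translocators Slc25a5 (-0.47) and Slc25a4 (-0.24) were lower too. Of 17 citric acid cycle genes 1 fell (Pdha1, -0.39, X-linked), and of 17 glycolysis genes and 14 regulators of mitochondrial biogenesis none was called.

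In EpiLCs no member passed the test for BPA, as no gene did. Of 15252 genes tested 0 were called (0.0%), with 118 at an unadjusted p under 0.05, none of them a member, and 4 higher and 12 lower genes in DESeq2, none of them a member. The 82 members had a median log2 change of -0.27, against 0.00 for all genes, and 79 of 82 values were negative. Those values rest on 1 library. Untreated EpiLC replicate 3 was the highest of the 6 EpiLC libraries for 79 of 82 members (39.3% of all genes had their highest value there), the exceptions being Sdha, Ndufs1 and Uqcrc2. The members summed to 12255, 11787 and 12892 CPM in BPA EpiLCs, against 12412 and 11414 CPM in the other untreated EpiLC libraries and 19461 CPM in untreated replicate 3. Without that library the median was 0.06, 60 of 82 values were positive and 0 members were called.

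The genes closest to the threshold in each complex show the same library. Cox7a1, the heart and muscle isoform of a complex IV subunit, had 2.86, 3.62 and 3.47 CPM in BPA EpiLCs and 4.12, 3.61 and 7.24 CPM in untreated EpiLCs (log2 change -0.55, adjusted p = 0.94). Ndufa11, an accessory subunit of complex I, had 63.7, 68.4 and 75.9 CPM with BPA and 78.2, 64.2 and 142 CPM without (log2 change -0.43, adjusted p = 0.94). In both genes 1 untreated library was high and the others overlapped with BPA EpiLCs. Atp5s (-0.30), Uqcrc1 (-0.24) and Sdhc (-0.18) were the others nearest to the threshold. In untreated EpiLC replicate 3, ribosomal protein genes took 14.3% of counts, against 8.35% to 9.41% in the other 5 EpiLC libraries, and reads without a feature were 4.42%, against 5.60% to 7.19%. The part of these differences in the members' values was not tested.

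PGCLCs had lower levels of most respiratory subunit transcripts than EpiLCs, in BPA cells and in untreated cells. In BPA cells 58 of 83 members were lower and 4 higher (25.0% and 32.5% of the 17608 genes tested were lower and higher), with a median log2 change of -0.68 against 0.13 for all genes. In untreated cells 52 of 83 were lower and 4 higher (25.2% and 30.4% of all genes), with a median of -0.56 against 0.07. The 2 comparisons share no library, but they come from 1 fit of 12 libraries and set the same stages and naming schemes against each other. In both, 47 members were lower, 81.0% of those lower in BPA cells and 90.4% of those lower in untreated cells. The matching overlap over all genes was not counted. All 3 PGCLC libraries lay below all 3 EpiLC libraries for 65 of 83 members in BPA cells (32.7% of all genes) and for 55 of 83 in untreated cells (28.2%). With offsets for GC content and length, untreated cells had 30 members lower and 15 higher. Of the 17608 genes tested in that fit, 5182 were lower and 4778 higher.

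**Figure D5:**
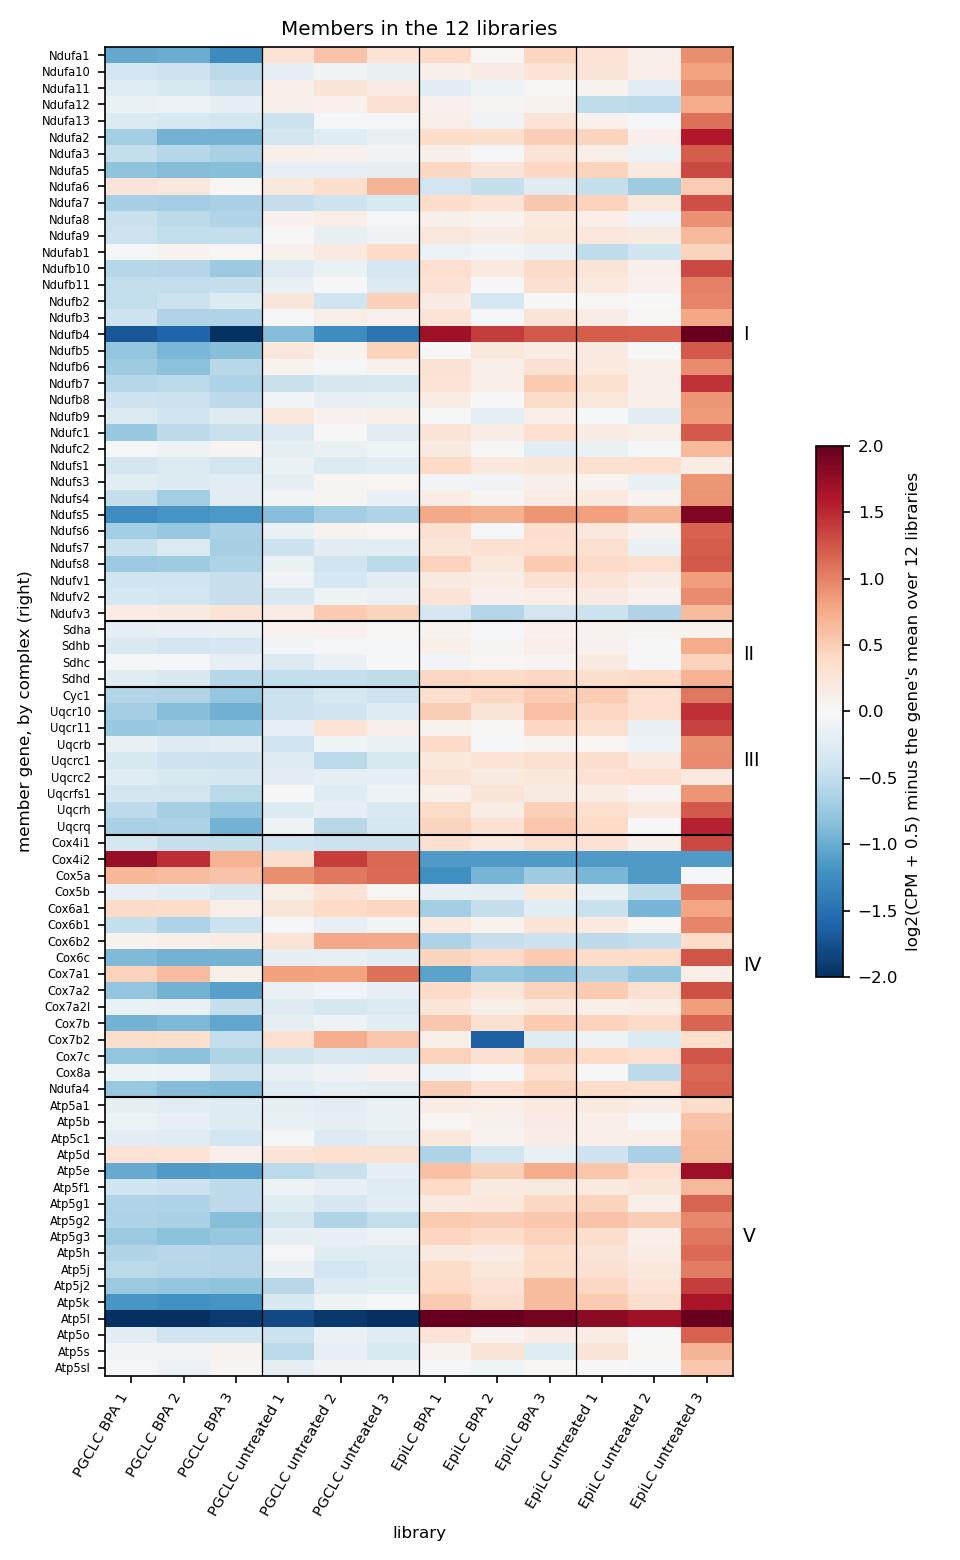
Log2 of CPM plus 0.5 for each member, minus its mean over the 12 libraries (colour, cut at 2 and -2), for members with a mean of at least 1 CPM (1 complex I member is not drawn), ordered by complex (down) and library (across), PGCLCs left of EpiLCs and BPA left of untreated. Most members are lower (blue) in the 6 PGCLC libraries, Cox5a and Cox7a1 are higher (red) there, and untreated EpiLC replicate 3 is the highest column for most members.

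Among complex I members 26 of 36 were lower in BPA PGCLCs than in BPA EpiLCs and 20 of 36 in untreated cells, with 6 of 7 core subunits in both. Ndufs1 had a log2 change of -0.63 in BPA cells and -0.48 in untreated cells, and Ndufv1 of -0.64 and -0.66. The largest fall was that of Ndufb4, a membrane-arm subunit, with 2.60, 2.86 and 2.09 CPM in BPA PGCLCs and 32.6, 26.3 and 23.2 CPM in BPA EpiLCs (log2 change -3.44, adjusted p = 1.5e-06). In untreated cells it had 5.10, 3.79 and 3.19 CPM in PGCLCs and 23.0, 22.7 and 44.2 CPM in EpiLCs (-2.89). Its groups did not overlap in either comparison, but 37.0% of its 50-base stretches also occur in a processed pseudogene, so its level is uncertain. Ndufa1 was lower in BPA cells (log2 change -1.42, adjusted p = 9.5e-05) and not called in untreated cells (-0.11, adjusted p = 0.66). With offsets for GC content and length Ndufa1 was not called in BPA cells (-0.19) and was higher in untreated PGCLCs (1.17).

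Complexes II and III followed the same direction. Sdhd, a membrane anchor of complex II, had 114, 107 and 90.5 CPM in BPA PGCLCs and 179, 176 and 179 CPM in BPA EpiLCs (log2 change -0.78, adjusted p = 8.6e-05), and its fall in untreated cells was -0.98. Sdha had 326, 331 and 316 CPM in untreated PGCLCs and 328, 328 and 327 CPM in untreated EpiLCs, with no difference past the test (log2 change -0.02). Of complex III, 8 of 9 members were lower in BPA cells and 7 of 9 in untreated cells. Uqcr10, a small subunit, had 57.6, 51.3 and 47.6 CPM in BPA PGCLCs, against 131, 112 and 142 CPM in BPA EpiLCs (log2 change -1.30; -1.19 in untreated cells). Cyc1 had 157, 168 and 160 CPM in untreated PGCLCs, against 302, 268 and 443 CPM in untreated EpiLCs (log2 change -1.06, adjusted p = 0.00012). In both genes every PGCLC library lay below every EpiLC library. With offsets for GC content and length Uqcr10 was not called in untreated cells (-0.19, adjusted p = 0.395), and with the replicate block as well it was not called in BPA cells (-0.53, adjusted p = 0.06335).

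Complex IV moved both ways. Of its 17 members 9 were lower and 4 higher in BPA cells, and 8 lower and 4 higher in untreated cells, with Cox5a, Cox7a1, Cox6b2 and Cox4i2 higher in both; Cox8c is among those lower in BPA cells. Cox5a, a subunit on the matrix side of the oxidase that contacts Cox4, had 160, 154 and 149 CPM in BPA PGCLCs and 42.8, 52.2 and 61.1 CPM in BPA EpiLCs (log2 change 1.57, SE 0.24, adjusted p = 0.00013). In untreated cells it had 191, 209 and 221 CPM in PGCLCs and 53.0, 45.3 and 97.2 CPM in EpiLCs (log2 change 1.67, adjusted p = 9.1e-05). The stages did not overlap, and under 16 other settings each the change stayed called, between 1.44 and 1.84 in BPA cells and between 1.47 and 2.03 in untreated cells.

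Alternative isoforms were low in level. Cox7a1 had 9.20, 10.3 and 7.18 CPM in BPA PGCLCs and 2.86, 3.62 and 3.47 CPM in BPA EpiLCs (log2 change 1.43, adjusted p = 0.00059), and 11.9, 11.8 and 14.6 CPM in untreated PGCLCs against 4.12, 3.61 and 7.24 CPM in untreated EpiLCs (1.37). Its counterpart Cox7a2 went the other way (-1.31 and -0.88), though in untreated cells its call was lost with offsets for GC content and length (-0.17). Cox6b2, known from testis, was higher by 0.62 in BPA cells and 0.79 in untreated cells on the log2 scale; in BPA cells the call was lost when any 1 of the 6 libraries was left out. Cox6b1, its common counterpart, was lower (-0.70 and -0.55), and with those offsets its values were 0.03 and 0.37. Cox4i2, an isoform known from lung and from hypoxia, had 3.15, 2.56 and 1.27 CPM in BPA PGCLCs and 0.892, 2.36 and 1.94 CPM in untreated PGCLCs, and it was unlisted in all 6 EpiLC libraries. Cox4i1 was lower in PGCLCs, with 208, 192 and 191 CPM in BPA PGCLCs and 334, 304 and 335 CPM in BPA EpiLCs (log2 change -0.72, adjusted p = 0.022; 0.0631 without BPA PGCLC replicate 3).

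The remaining isoforms were near the limit of the files. Cox7b2, known from testis, ranged between 0.594 and 1.46 CPM in BPA PGCLCs and between 1.43 and 2.05 CPM in untreated PGCLCs, and it was unlisted in 1 BPA EpiLC library; it was not called by stage. Cox8c, also known from testis, was unlisted in every BPA PGCLC library and reached at most 0.342 CPM in untreated PGCLCs and 1.74 CPM in untreated EpiLCs. No fold is given for Cox4i2 and Cox8c against groups in which they were unlisted. Cox7b, a common subunit, had the largest fall of complex IV in BPA cells (log2 change -1.43; -0.89 in untreated cells, where it was -0.39 and not called with those offsets, adjusted p = 0.152). With a replicate block in the fit, 7 members in place of 4 were higher in BPA PGCLCs than in BPA EpiLCs. Of the 17608 genes tested, 5293 were higher with the block, in place of 5717.

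Complex V was lower in 12 of 17 members in BPA cells and in 15 of 17 in untreated cells, among them 9 and 10 of the 10 membrane and stalk subunits. Atp5l, the g subunit of the membrane part, had 2.502, 2.33 and 2.74 CPM in BPA PGCLCs and 56.3, 50.2 and 45.5 CPM in BPA EpiLCs (log2 change -4.32, SE 0.31, adjusted p = 3.6e-07). In untreated cells it had 3.00, 2.71 and 1.53 CPM in PGCLCs and 42.2, 39.4 and 81.0 CPM in EpiLCs (log2 change -4.48). Every PGCLC library was at 3.00 CPM or less and every EpiLC library at 39.4 CPM or more. The gene overlaps an antisense gene, and whether counting used the strand is not given. Atp5k (-1.71 and -1.10), Atp5e (-1.70 and -1.39), Atp5g2 (-1.22 and -1.18) and Atp5g3 (-1.19 and -0.72) were lower in BPA and in untreated cells, the call of Atp5k in untreated cells being lost with offsets for GC content and length (-0.19). Atp5a1 (-0.38 and -0.41) was lower in both, and Atp5b (-0.28 and -0.41) in untreated cells.

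Per kilobase of merged exons Atp5b had the highest level of all members in each group, at 386 ± 19.5 CPM per kilobase in BPA PGCLCs, 392 ± 5.83 in untreated PGCLCs, 467 ± 19.4 in BPA EpiLCs and 522 ± 109 in untreated EpiLCs (SD, n = 3 each). Atp5a1 came next in each group (323 ± 8.94, 334 ± 7.88, 420 ± 8.33 and 445 ± 37.9 CPM per kilobase in the same order of groups). Among the 3 c-subunit genes the order was Atp5g3 over Atp5g2 over Atp5g1 in every group, with 77.0 ± 2.01, 48.5 ± 4.10 and 17.6 ± 0.626 CPM per kilobase in BPA PGCLCs. In complex IV the highest level per kilobase was that of Cox6a1 in untreated PGCLCs (185 ± 12.6) and of Cox4i1 in untreated EpiLCs (274 ± 134), a mean whose spread comes from replicate 3. Part of this order depends on the length used. Per kilobase of the principal transcript, Cox5a (321) came before Cox4i1 (260) in complex IV of untreated PGCLCs. In untreated EpiLCs Atp5g3 (589) came second in complex V, and Cox4i1 (555) stayed highest in complex IV.

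Transcripts of other kinds differed by stage as well. Processed pseudogenes were lower in PGCLCs in 571 of 1062 cases in BPA cells and in 556 in untreated cells, and those that share sequence with members summed to 33.2 to 42.8 CPM in PGCLC libraries and 153 to 255 CPM in EpiLC libraries. Members that share no 50-base stretch with another gene were lower in 37 of 48 cases in BPA cells and in 30 of 48 in untreated cells, and those that share one in 21 of 35 and 22 of 35. Ribosomal protein genes were lower in 65 of 84 and 58 of 84 cases. Reads without a feature were 9.21% to 10.7% in PGCLC libraries and 4.42% to 7.19% in EpiLC libraries. The part of these differences in the members' changes was not tested.

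Other genes of energy metabolism differed by stage in both directions. Of all genes tested, 25.0% were lower and 32.5% higher in BPA cells, and 25.2% and 30.4% in untreated cells. Assembly factors were lower in PGCLCs in 23 of 46 cases (3 higher) in BPA cells and in 19 (2 higher) in untreated cells. Cycs averaged 48.4 ± 4.26 CPM in BPA PGCLCs and 121 ± 15.3 CPM in BPA EpiLCs (SD, n = 3 each; log2 change -1.33), and its log2 change in untreated cells was -0.79. Of 10 carrier and cytochrome c genes 7 were lower in BPA cells and 6 in untreated cells, among them Slc25a5 (-1.04 and -0.64). Of 14 biogenesis regulators 4 were lower and 2 higher in BPA cells, and 4 lower and 3 higher in untreated cells. Tfam, which packages and transcribes mitochondrial DNA, was lower (-0.68 and -0.49), as was the coactivator Ppargc1b (-1.50 and -1.52), while Yy1 was higher (0.50 and 0.36). Of 17 citric acid cycle genes 7 were lower in each, including Idh3a (-1.09 and -0.84), and 2 and 3 were higher. Idh2, the NADP-dependent mitochondrial isocitrate dehydrogenase, was higher (1.94 and 1.89). Of 17 glycolysis genes 9 were higher and 5 lower in BPA cells, and 8 higher and 6 lower in untreated cells, with Slc2a3, a glucose transporter (3.77 and 3.37), Pfkp (3.35 and 3.27) and Hk1 (2.45 and 2.41) among those higher. In each of these pairs the value for BPA cells stands before that for untreated cells.

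The BPA effect in PGCLCs was set against that in EpiLCs by an interaction term, which was called for 232 of 17608 genes (1.32%) and for 1 of 83 members. Ndufa1 had an interaction of -1.31 on the log2 scale (adjusted p = 0.049), with 15.7, 16.1 and 13.2 CPM in BPA PGCLCs, 39.4, 48.5 and 39.7 CPM in untreated PGCLCs, 42.4, 33.4 and 44.0 CPM in BPA EpiLCs and 39.4, 35.9 and 62.7 CPM in untreated EpiLCs. BPA PGCLCs were the low group, and the other 3 overlapped. The call was lost with RLE factors (adjusted p = 0.061) and in 11 of 12 fits with 1 library left out. Without untreated EpiLC replicate 3, 17 members were called, all with a lower value in PGCLCs, and the median interaction was -0.37 in place of -0.07. Of the 18885 genes tested in that fit, 463 were called higher and 304 lower. Sdha, Uqcrc1, Cox7b and Atp5s were nearest to the threshold in the other complexes and were not called.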

How the data were processed

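Poly(A) RNA of 12 libraries was profiled with a strand-specific kit (NuGEN Universal Plus mRNA-Seq), per the labels. Per the submitters' processing notes, bcl2fastq 2.19.1.403, FastQC, STAR and HTSeq were used with mm10; other versions are not given. The deposited count files hold whole-read counts per Ensembl gene, and the authors omitted genes with fewer than 10. Reads in no feature (4.42% to 10.7%) or in more than 1 (ambiguous, 4.56% to 6.07%) stayed out of library sizes. The deposited CPM tables, made by the authors for each stage separately, equal the counts divided by 1 constant per library; they gave symbols and served in an alternative within a stage. GENCODE M21 held 21695 of 21728 IDs and all 83 members.

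Unlisted genes were taken as 0. Low genes were removed by filterByExpr and libraries scaled by TMM; the test was the quasi-likelihood test of edgeR 4.0.16 in R 4.3.3, with Benjamini-Hochberg adjustment over all genes tested. BPA was tested within each stage (6 libraries), stage and interaction in 1 fit of 12 libraries. An SE is |log2 change| over the root of the F statistic. Gene-level adjusted p in the text are from edgeR with 3 libraries per group, with these exceptions. Those given without a named library have fewer libraries in 1 group. The range given for the Ndufa1 interaction over other settings also covers DESeq2, limma voom and fits with a library left out. Depth limits low genes most. Each fit was first checked on simulated counts. With members unlisted in a whole group (Cox4i2, Cox8c) held at 9 counts per library, the members' medians were those printed.

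Alternatives were RLE factors, TMM without ribosomal protein genes and members, no filter, 1 CPM in 3 libraries, DESeq2 1.42.0, limma 3.58.1 voom, limma-trend on deposited CPM plus 1 or 0.1, a replicate block, GC and length offsets, both together, other sets of libraries and each library left out. The offsets took length from merged exons and GC content from the longest transcript. Same-numbered EpiLC libraries deviated together (r = 0.148, 0.326 and 0.448 over 10740 genes). They were therefore paired by number in the replicate block, while the main tests used no block. The evidence for pairing is the data alone, since the labels name no shared culture. Of the different-numbered pairs, BPA replicate 1 with untreated replicate 2 (r = 0.323) and BPA replicate 2 with untreated replicate 1 (r = 0.184) deviated together as well.

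Members and gene lists were chosen with earlier results of these data known. Named were, per comparison and complex, the called member with the largest change each way among those with a mean of at least 1 CPM (or, with no call, the member with the smallest p), core subunits, and isoforms with their counterparts; for other lists, called genes with small p. Ndufb5, Ndufb6, Ndufs6, Ndufa5, Ndufa3, Ndufa8, Uqcrh, Cox6c, Cox7c, Cox5b and Atp5e, and some list genes, were named after their values were seen. The values of 1 subunit are not reported here.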

Additional observations from a re-analysis of the deposited data

Results flagged for a closer look

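The log2 BPA effect on Ndufa1 differed between the stages by the test of the difference itself, being -1.49 in PGCLCs and -0.18 in EpiLCs, with an interaction of -1.31 (edgeR quasi-likelihood, adjusted p = 0.049, n = 3 libraries per group). Over 21 other settings the interaction lay between -1.56 and -1.16, and the adjusted p between 0.00339 and 0.147.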

How the results depend on the processing

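With GC and length offsets the median member log2 change for BPA in PGCLCs was -0.22 (-0.22 with the replicate block as well), for stage in BPA cells -0.45 (-0.47), for stage in untreated cells -0.32 (-0.29), for BPA in EpiLCs -0.11 (-0.089) and for the interaction -0.21 (-0.23; -0.14 with the block alone). Members called lower with BPA in PGCLCs then numbered 23 (15 with the block), and 7 in the fit of all 12 libraries. With the offsets 1 member was called higher (1 with the block). Over all genes the offsets gave 879 lower (559 with the block) and 1172 higher (921 with the block). The fit of all 12 libraries gave 548 lower. By stage in untreated cells the offsets gave 30 members lower and 15 higher (27 and 10 with the block). Of all 17608 genes tested, these fits gave 5182 lower and 4778 higher (4965 and 4351 with the block). By stage in BPA cells 7 members were higher with the replicate block, 8 with the offsets, 8 with both and 8 in a fit of the 6 BPA libraries. In the same order, 5293, 5135 and 4542 of 17608 genes were higher, and 6379 of 16287 in the fit of 6 libraries. The interaction called 0 members with RLE factors and 0 with block and offsets. With the offsets, Cox6b1 reversed by stage in BPA cells (0.025; 0.023 with the block) and in untreated cells (0.37; 0.36), and in untreated cells Ndufa1 (1.17; 1.18), Ndufs6 (0.18; 0.21), Ndufa11 (0.31), Ndufa8 (0.39) and Ndufb6 (0.54) reversed, as did Cox5b there without untreated EpiLC replicate 3 (0.42; as low as -0.42 without another library). The offsets moved the median of all genes by stage in BPA cells to -0.02, against 0.13. The causes were not tested.

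Leaving out 1 library at a time, the median ranged between -0.43 and 0.061 for BPA in EpiLCs, -0.34 and -0.29 for BPA in PGCLCs, -0.75 and -0.65 for stage in BPA cells, -0.75 and -0.36 for stage in untreated cells, and -0.37 and 0.10 for the interaction. Members called lower numbered 14 to 36 for BPA in PGCLCs, 48 to 55 and 42 to 62 for stage in BPA and untreated cells, and 0 to 17 for the interaction. Over all genes the ranges were 268 to 1271, 3802 to 4191, 4021 to 4582 and 15 to 304, in the same order. The 17 came without untreated EpiLC replicate 3, where 304 of 18885 genes were lower. Members called higher numbered 0 to 1 for BPA in PGCLCs, 3 in each fit for stage in BPA cells and 4 to 11 for stage in untreated cells. Over all genes the ranges were 383 to 1935, 4713 to 5189 and 4666 to 5011, in the same order. Without untreated EpiLC replicate 3, 11 members were higher by stage in untreated cells.

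With the replicate block, which pairs libraries by number, BPA called 0 genes in EpiLCs as well. Same-numbered PGCLC libraries did not deviate together (r = 0.03, -0.04 and -0.08 over 10925 genes), so they share only a number. With the block 597 genes were lower with BPA in PGCLCs, in place of 959, and 27 members, in place of 36. Of the members named, Sdha, Sdhb, Atp5g1 and Uqcr10 lost their calls for BPA in PGCLCs. Depth limits Cox4i2, Cox7b2 and Cox8c, which lie near the 10-count minimum.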
